A study of Mus musculus with 8 samples.

Results

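Non-classical monocytes are the blood monocytes that crawl along the inner wall of vessels. The 10 genes described here, Adgre4, Fabp4, Ace, Treml4, Spn, Eno3, Pglyrp1, Ceacam1, Stap1 and Gngt2, are used as markers of these cells in the mouse. They were selected by symbol from a deposited table of 22597 genes, and each of the 10 matched a single row and passed the filter on low counts. They were measured in macrophages sorted from the lungs of female C57BL/6 mice as interstitial macrophages, which lie in the tissue outside the air spaces. The recipients in both groups were CD45.1/CD45.2 IMDTR mice, a Cx3cr1-DTR line whose interstitial macrophages can be deleted with diphtheria toxin, irradiated with the thorax shielded. The KO group received marrow from CD45.2 Lyz2Cre Tgfbr2fl/fl donors, and the WT group received marrow from CD45.2 Tgfbr2fl/fl donors, which carry the floxed alleles but no Cre. Cre under control of Lyz2 acts in myeloid cells and there deletes the floxed segment of Tgfbr2, which encodes the type II TGF-β receptor. After 1 month both groups were given 50 ng of diphtheria toxin, and the macrophages that refilled the niche were sorted 10 days later. There were 4 libraries per genotype, called KO 1 to KO 4 and WT 1 to WT 4. The recipients were 18 weeks old when irradiated according to the treatment protocol, whereas the age field of the labels gives 12 to 16 weeks. Only the KO donors carried Cre, so an effect of Cre and one of receptor loss cannot be told apart. Whether the 4 libraries of a genotype came from separate mice is not in the labels, and p-values then cover only the spread among the libraries at hand, which may be technical.

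In the mouse, non-classical monocytes are Ly6C-low and Cx3cr1-high and arise largely from classical Ly6C-high monocytes in a step that depends on the orphan nuclear receptor Nr4a1. Klf2 and Cebpb are among the other factors tied to this conversion, and signalling through the receptors Csf1r and Notch2 supports it. Monocytes that enter the emptied niche become interstitial macrophages and lose many monocyte transcripts on the way, and Cx3cr1 stays on in part of those macrophages.

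The total count per library was between 15597300 (WT 1) and 37654100 (WT 4), and levels are given in CPM, scaled between libraries by TMM, in which 3 counts came to 0.0844 to 0.177 CPM. KO 1, WT 1 and WT 2 stood apart from the other 5 libraries in transcripts of non-macrophage lung cells and are called lung-rich here. The summed level of 12 endothelial markers was 4391 CPM in KO 1 and 2256 and 2875 CPM in WT 2 and WT 1, against 166 to 200 CPM in KO 2 to KO 4 and 237 and 238 CPM in WT 4 and WT 3. The 12 interstitial macrophage markers went the other way, with a sum of 9495 CPM in KO 1, 20726 to 21263 CPM in KO 2 to KO 4, 13589 and 14417 CPM in WT 1 and WT 2, and 19329 and 19636 CPM in WT 3 and WT 4. Every library held the labelled cell type's markers, with the macrophage receptor Adgre1 (F4/80) at 657 to 1542 CPM in KO and 937 to 1270 CPM in WT. The sets were defined from the data and hold both genotypes, so each gene is given over all 8 libraries, with the set as a term in the fit, within the other 5 (KO 2 to KO 4 against WT 3 and WT 4), and within the 3 lung-rich ones (KO 1 against WT 1 and WT 2). WT 3 and WT 4 differed by a median of 1.87 times counting noise, the least of any pair of replicates. The pairs among KO 2 to KO 4 were nearly as alike, at 2.06 to 3.07 times. KO 1 is the only KO library of its set. Fits within the lung-rich set take their spread from WT 1 and WT 2 and assume that KO 1 varies like them, so their values compare a single KO library and give no check between KO replicates. Tgfbr2 itself was at 424 to 576 CPM in KO and 474 to 548 CPM in WT, a count over the whole gene that includes the exons outside the deleted part and so does not check the deletion. Lyz2, the gene that carries Cre, was at 3440 to 5611 CPM in KO and 7285 to 13193 CPM in WT.

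The promoters of the genes that the comparison turns on are shown first, since the expression of non-classical monocyte genes is tied to NR4A and KLF factors. RefSeq (GRCm38.p6) gave a promoter of 300 bases, from 250 before to 50 after the start site, for 7 of the 10 genes, and Ace has 2. Those of Adgre4, of both starts of Ace and of Eno3 are printed 5′ to 3′ on the gene's own strand. Capitals mark AGGTCA, the core of the NR4A motif AAAGGTCA, and GGGTGG or GGGTGT, letters bound by KLF factors, or the reverse complement of either.
Adgre4, chr17:55749734-55750033, plus strand: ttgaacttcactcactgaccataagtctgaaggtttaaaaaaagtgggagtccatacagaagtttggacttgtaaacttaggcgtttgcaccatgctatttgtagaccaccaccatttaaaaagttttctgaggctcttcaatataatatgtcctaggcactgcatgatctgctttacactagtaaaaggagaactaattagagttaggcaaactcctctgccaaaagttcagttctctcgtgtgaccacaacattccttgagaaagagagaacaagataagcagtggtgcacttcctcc
Ace, upstream start, chr11:105967698-105967997, plus strand: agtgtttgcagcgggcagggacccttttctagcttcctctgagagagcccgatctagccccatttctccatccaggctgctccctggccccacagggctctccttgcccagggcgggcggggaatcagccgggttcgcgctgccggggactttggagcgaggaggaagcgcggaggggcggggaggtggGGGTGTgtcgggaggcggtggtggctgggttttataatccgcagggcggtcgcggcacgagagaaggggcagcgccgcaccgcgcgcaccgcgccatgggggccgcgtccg
Ace, start inside the gene, chr11:105974939-105975238, plus strand: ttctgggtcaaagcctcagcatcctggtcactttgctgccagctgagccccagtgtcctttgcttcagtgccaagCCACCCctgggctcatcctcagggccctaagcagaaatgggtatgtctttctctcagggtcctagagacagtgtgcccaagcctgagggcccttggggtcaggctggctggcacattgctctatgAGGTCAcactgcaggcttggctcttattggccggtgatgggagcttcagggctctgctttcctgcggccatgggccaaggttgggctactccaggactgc
Eno3, chr11:70656926-70657225, plus strand: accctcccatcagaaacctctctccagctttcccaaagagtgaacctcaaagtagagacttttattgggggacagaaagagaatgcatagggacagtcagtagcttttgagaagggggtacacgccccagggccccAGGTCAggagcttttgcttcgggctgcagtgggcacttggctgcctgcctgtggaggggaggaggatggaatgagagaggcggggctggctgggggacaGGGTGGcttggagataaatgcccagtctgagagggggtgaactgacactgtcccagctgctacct

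The full motif AAAGGTCA was in the promoter of 0 of the 7 genes, against 1.51% of 32851 mouse promoters of the same length, and both strands were searched. Its core AGGTCA, which every full motif contains, was in those of Eno3 and Treml4 and at the inner start of Ace, 3 of the 7 genes. Counted by promoter, as the share of all promoters is, that was 3 of 8, against 16.3%. GGGTGG or GGGTGT was in those of Ace, Ceacam1, Eno3, Pglyrp1 and Spn, 5 of the 7 genes. By promoter that was 6 of 8, against 41.9% of all promoters. The Adgre4 window held neither. A match is a run of letters and not a measured binding site, and the lack of one says only that these letters are not in this window.

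Across the 10 genes the KO libraries tended to the higher side, with a spread between libraries that a comparison of genotype alone did not overcome. Over all 8 libraries, 9 of the 10 had a log2 fold change (KO over WT) above 0, against 48.0% of the 12750 genes tested, and the median was 0.34 for the 10 genes and -0.01 for all genes. In bulk RNA, fewer cells of a type and less RNA per cell cannot be told apart, here and for all values that follow. No member passed an adjusted p of 0.05 in edgeR's quasi-likelihood test with Benjamini-Hochberg adjustment over all genes (0 of 10), where 0.298% of all genes did. At an unadjusted p under 0.05 there were 5 of 10, against 1328 of the 12750 genes tested. DESeq2 called 3 of 10 higher (Adgre4, Fabp4 and Eno3) and 0 lower, against 314 higher and 152 lower of 17262 genes. With limma-voom 0 of 10 were called, against 21 higher and 11 lower of 12750 genes. With the library set as a term, edgeR called 6 of the 10 higher in KO and 0 lower, where 8.59% of all genes were called higher and 7.89% lower. The 6 were Adgre4, Fabp4, Ace, Eno3, Pglyrp1 and Ceacam1, and the same 6 were higher in KO with no overlap within each of the sets, with 0 members lower in both, against 14.8% and 13.6% of all genes. Within the other 5 libraries alone, 8 members were higher and 1 lower with no overlap, against 29.0% and 30.2% of all genes, and within the lung-rich ones 7 and 2, against 46.4% and 32.8%. The median of the 10 with the set term was 0.47, against 0.03 for all genes. Without WT 3 the number called in the set-term fit fell to 2 (Adgre4 and Fabp4), without WT 4 to 3 (with Ceacam1), and with WT 3 and WT 4 summed to 1 library to 2 (Adgre4 and Fabp4). All genes called higher also fell, from 1095 of 12750 to 307 of 13477, 318 of 13420 and 318 of 13472, in the same order.

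**Figure D1:**
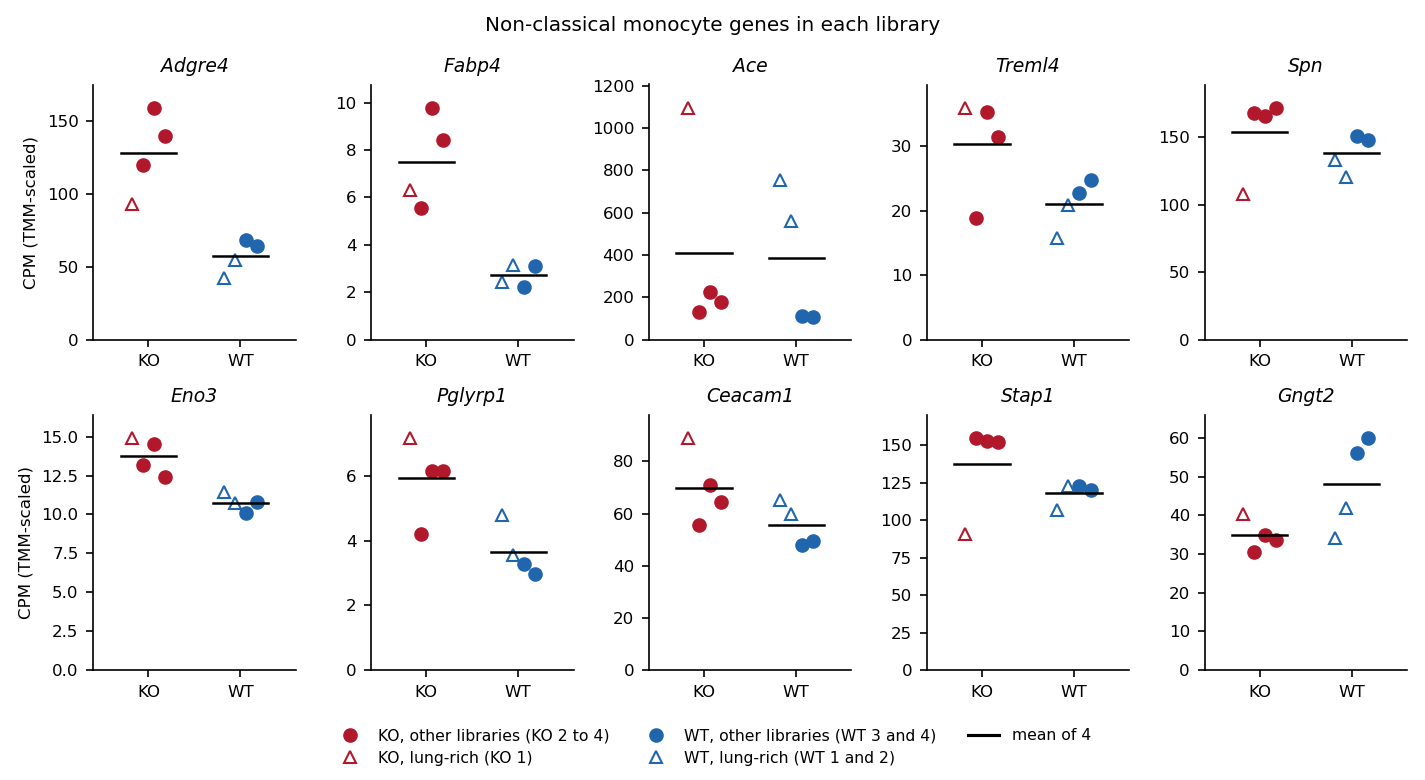
Level of each of the 10 genes in CPM (vertical axis of each panel, from 0) in the 4 KO libraries, at the left, and the 4 WT libraries, at the right. Marker shape tells the 3 lung-rich libraries from the other 5. Adgre4, Fabp4 and Eno3 were higher in every KO library than in every WT library, whereas Ace separated by library set.

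The membrane receptors and adhesion molecules come first. Adgre4 (ENSMUSG00000032915, chromosome 17, 55749984 to 55853662, plus strand, GRCm38) encodes an adhesion G protein-coupled receptor related to F4/80 and found on monocytes and macrophages. It was at 93.4, 120, 159 and 140 CPM in KO 1 to KO 4, against 42.6, 54.6, 68.3 and 64.2 CPM in WT 1 to WT 4. Every KO library was above every WT library, as for 3 of the 10 genes (Adgre4, Fabp4 and Eno3) and 4.19% of all genes, and 0 members lay wholly below WT (2.71% of all genes). Within each genotype the lung-rich libraries were the lowest. The mean was 128 ± 28.2 CPM in KO and 57.4 ± 11.4 CPM in WT (SD, n = 4 each). By genotype alone this was a log2 fold change of 1.16 ± 0.20 (SE), short of the threshold (edgeR adjusted p = 0.0851). With the set as a term Adgre4 rose by 1.03 ± 0.11 (SE; edgeR adjusted p = 0.00119), and the value was 1.08 for KO 2 to KO 4 against WT 3 and WT 4 (edgeR adjusted p = 0.0130) and 0.87 for KO 1 against WT 1 and WT 2 (0.0428). In the fits with the set term that left out each library in turn, its edgeR adjusted p was between 0.00107 and 0.0128. Within the other 5 libraries it lost its call without WT 3 or WT 4, where the adjusted p reached 0.0923.

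Treml4 (ENSMUSG00000051682, chromosome 17, 48264295 to 48275360, plus strand) encodes a TREM-like receptor of myeloid cells that binds dying cells. It was at 35.9, 18.9, 35.2 and 31.5 CPM in KO 1 to KO 4, against 15.8, 20.8, 22.7 and 24.8 CPM in WT 1 to WT 4. KO 2 lay inside the WT range and the other KO libraries above it. The log2 fold change was 0.52 with the set as a term (95% interval -0.01 to 1.04, edgeR adjusted p = 0.168), against 0.25 without KO 1 (0.571) and 0.66, past the threshold, without KO 2 (0.0230). In the other 5 libraries the value was 0.25 (edgeR adjusted p = 0.643), against 0.49 without KO 2 (1.1e-06) and values down to 0.05 without KO 3 (0.929). For KO 1 against WT 1 and WT 2 it was 0.90 (edgeR adjusted p = 0.0477). Treml4 and Adgre4 were the 2 members under the threshold in that fit, where 3.16% of all genes were under it as higher and 1.95%, with 0 members, as lower. The difference between the sets, 0.71, did not pass (edgeR adjusted p = 0.355).

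Spn (ENSMUSG00000051457, chromosome 7, 127132232 to 127137823, minus strand) encodes CD43, the sialoglycoprotein whose high level on the surface marks Ly6C-low monocytes. It was at 108, 168, 166 and 172 CPM in KO 1 to KO 4, against 133, 121, 151 and 148 CPM in WT 1 to WT 4. KO 1 was the lowest of the 8 libraries and KO 2 to KO 4 the highest. Each lung-rich library was below each of the other 5, as for 23.1% of all genes. With the set as a term the log2 fold change was 0.03 (95% interval -0.15 to 0.22, edgeR adjusted p = 0.813), and without KO 1 it was 0.18 and passed (0.0175). Within the other 5 libraries Spn rose by 0.18 ± 0.04 (SE; edgeR adjusted p = 5.8e-04), one of 7 members called higher and 1 called lower there, where 19.7% of all genes were called higher and 18.7% lower. With each library left out in turn, between 3 (without WT 4) and 8 (without KO 2) members were called higher there. Of all genes, 1674 of 12888 without WT 4 and 2570 of 12508 without KO 2 were called higher. In the lung-rich libraries the value of Spn was -0.29 (edgeR adjusted p = 0.210). T cells also carry CD43, and 10 T and NK cell markers summed to 25.6 CPM in KO 1 and 2.54 to 4.01 CPM in KO 2 to KO 4, against 16.7 and 14.9 CPM in WT 1 and WT 2 and 4.21 and 4.11 CPM in WT 3 and WT 4. Of these markers 4 passed the filter on low counts and 0 of the 4 were called in the other 5 libraries, with 3 of the 4 log2 fold changes above 0 and a median of 0.12. Their part in the Spn count was not tested.

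Ceacam1 (ENSMUSG00000074272, chromosome 7, 25461707 to 25477603, minus strand) encodes a cell adhesion molecule of leukocytes, endothelium and epithelium that can carry inhibitory signals. Its level was 89.0, 55.5, 71.1 and 64.3 CPM in KO 1 to KO 4, against 65.2, 59.8, 47.9 and 49.5 CPM in WT 1 to WT 4. The genotypes overlapped over all 8 libraries and did not overlap within either set. Ceacam1 rose by 0.43 in the fit with the set term (SE 0.08; edgeR adjusted p = 0.0102). The call was lost without WT 3, at an edgeR adjusted p of 0.0579. The near copy Ceacam2 was at no more than 0.397 CPM in any library, and how reads shared by the pair were divided was not tested. In the lung-rich libraries the endothelial and epithelial sums were also higher in KO, 4391 and 5927 CPM in KO 1, against 2875 and 3782 CPM in WT 1 and 2256 and 3304 CPM in WT 2, and their part in the 0.45 seen there was not tested. In the other 5 libraries both sums were lower in each KO library than in each WT library, and Ceacam1 was higher by 0.38 (edgeR adjusted p = 0.0197), a call lost without KO 4, WT 3 or WT 4 (adjusted p up to 0.120).

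Fabp4, Ace, Eno3 and Pglyrp1 come next. By genotype alone, Fabp4 had the largest log2 fold change of the members and Ace the widest interval. Fabp4 (ENSMUSG00000062515, chromosome 3, 10204088 to 10208576, minus strand) encodes a fatty acid binding protein of adipocytes, macrophages and some endothelium. It was at 6.31, 5.54, 9.79 and 8.41 CPM in KO 1 to KO 4, against 2.43, 3.16, 2.21 and 3.12 CPM in WT 1 to WT 4, which rest on 133 to 192 counts in KO and 41 to 111 counts in WT. The groups did not overlap. The mean was 7.51 ± 1.94 CPM in KO and 2.73 ± 0.486 CPM in WT (SD, n = 4 each), or 1.46 ± 0.23 on the log2 scale (SE), short of the threshold by genotype alone (edgeR adjusted p = 0.0632). With the set as a term Fabp4 rose by 1.40 ± 0.23 (SE; edgeR adjusted p = 0.00581), and its adjusted p was between 0.00133 and 0.0334 when each library was left out of that fit. The value was 1.52 within the other 5 (edgeR adjusted p = 9.6e-04) and 1.10 within the lung-rich set (0.0725). The 6 adipocyte markers summed to 0.330 to 0.496 CPM in KO and 0.154 to 0.527 CPM in WT. Adipoq, Plin1, Pck1 and Cfd had no more than 3 counts in any library. The 10 alveolar macrophage markers summed to 165 CPM in KO 1 and 81.9 to 91.1 CPM in KO 2 to KO 4, against 110 and 132 CPM in WT 1 and WT 2 and 482 CPM in both WT 3 and WT 4. Their sum was lower in KO within the other 5 libraries and higher in KO within the lung-rich set, whereas Fabp4 was higher in KO within both. Chil3, one of these markers, made up most of the sum in WT 3 and WT 4. Of the 8 markers that passed the filter, 1 (Marco) was higher in KO with no overlap within both sets, like Fabp4. In the other direction there was also 1 (Siglecf), against 14.8% higher and 13.6% lower of all genes. Fabp4 was at 2.43 and 3.16 CPM in WT 1 and WT 2, with their raised endothelial sums, and at 2.21 and 3.12 CPM in WT 3 and WT 4. The part of adipocytes, alveolar macrophages and endothelium in the Fabp4 count was not tested.

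Ace (ENSMUSG00000020681, chromosome 11, 105967945 to 105989964, plus strand) encodes angiotensin-converting enzyme, which is abundant on lung capillary endothelium as well as on non-classical monocytes. It was at 1096, 132, 228 and 180 CPM in KO 1 to KO 4, against 752, 562, 112 and 109 CPM in WT 1 to WT 4. Each lung-rich library was above each of the other 5, as for 28.1% of all genes. KO 1 was at 6.08 times the mean of the other KO libraries, and WT 1 and WT 2 together at 5.96 times the mean of WT 3 and WT 4. With genotype alone the log2 fold change was 0.09 ± 0.93 (SE; edgeR adjusted p = 1.00). With the set as a term Ace rose by 0.72 ± 0.17 (SE; edgeR adjusted p = 0.0266), and the separate fits gave 0.71 within the other 5 (edgeR adjusted p = 0.173) and 0.67 within the lung-rich set (0.0875). The call with the set term was lost without KO 1, KO 4, WT 2, WT 3 or WT 4, with adjusted p up to 0.139. The endothelial sum moved with Ace across the sets and between KO 1 and the lung-rich WT libraries, and its part there was not tested. Among the other 5 libraries that sum was 166 to 200 CPM in KO and 237 to 238 CPM in WT, the opposite direction to Ace.

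Eno3 (ENSMUSG00000060600, chromosome 11, 70657202 to 70662513, plus strand) encodes the muscle form of the glycolytic enzyme enolase. Its level was 14.9, 13.2, 14.5 and 12.4 CPM in KO 1 to KO 4, against 11.4, 10.7, 10.1 and 10.8 CPM in WT 1 to WT 4. Every KO library was above every WT library by a small margin. The mean was 13.8 ± 1.16 CPM in KO and 10.8 ± 0.536 CPM in WT (SD, n = 4 each). It rose by 0.38 ± 0.08 with the set as a term (SE; edgeR adjusted p = 0.0161), against 0.36 (adjusted p = 0.171) with genotype alone. The call was lost without KO 3, WT 3 or WT 4, with adjusted p up to 0.0894. The 6 muscle markers summed to 1.02 to 2.12 CPM in KO and 1.23 to 1.45 CPM in WT. Acta1 and Myh4 had no more than 3 counts in any library, and Tnnt3 was the 1 that passed the filter. The log2 fold change of Tnnt3 was 0.04 with the set as a term and 0.65 within the other 5 libraries, called in neither. The part of these markers' cells in the Eno3 count was not tested.

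Pglyrp1 (ENSMUSG00000030413, chromosome 7, 18871331 to 18890459, plus strand) encodes a secreted peptidoglycan recognition protein that neutrophils also store in granules. It was at 7.17, 4.21, 6.17 and 6.16 CPM in KO 1 to KO 4, against 4.79, 3.56, 3.28 and 2.98 CPM in WT 1 to WT 4. KO 2 lay below WT 1 but above the WT libraries of its own set. Pglyrp1 rose by 0.80 ± 0.17 in the fit with the set term (SE; edgeR adjusted p = 0.0171). The call was lost without KO 3, KO 4, WT 3 or WT 4, with adjusted p up to 0.0826. The 12 neutrophil markers summed to 151 CPM in KO 1 against 138 and 134 CPM in WT 1 and WT 2. In KO 2 to KO 4 they summed to 154 to 184 CPM, against 225 and 230 CPM in WT 3 and WT 4. The sum was thus higher in KO within the lung-rich set and lower in KO within the other 5 libraries. Ly6g, the defining one, had no more than 3 counts in any library. The part of neutrophils in the Pglyrp1 count was not tested.

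Stap1 and Gngt2 act inside the cell, and their genotype difference was not the same in the sets. Stap1 (ENSMUSG00000029254, chromosome 5, 86071746 to 86106125, plus strand) encodes an adaptor with an SH2 domain that works downstream of tyrosine kinases. It was at 90.9, 155, 153 and 152 CPM in KO 1 to KO 4, against 107, 123, 123 and 120 CPM in WT 1 to WT 4. KO 1 was the lowest library and KO 2 to KO 4 lay together above all WT libraries. Within the other 5 libraries Stap1 rose by 0.34 ± 0.04 (SE; edgeR adjusted p = 4.8e-07), and in the lung-rich ones the value was -0.40 (0.132). Across both sets the fit with the set term gave 0.10 (95% interval -0.20 to 0.40, edgeR adjusted p = 0.643), and without KO 1 it gave 0.33 and passed (8.8e-04). B cells also use Stap1, and the 8 B cell markers summed to 167 to 187 CPM in KO and 193 to 200 CPM in WT.

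Gngt2 (ENSMUSG00000038811, chromosome 11, 95837216 to 95845734, plus strand) encodes a G protein gamma subunit first known from cone photoreceptors. It was at 40.4, 30.6, 34.8 and 33.7 CPM in KO 1 to KO 4, against 34.1, 41.8, 56.1 and 60.0 CPM in WT 1 to WT 4. KO 2 to KO 4 lay below WT 3 and WT 4, whereas KO 1 lay between WT 1 and WT 2. In the other 5 libraries Gngt2 fell by 0.82 on the log2 scale (edgeR adjusted p = 3.1e-09), the opposite direction to the other members called there, and in the lung-rich ones the value was 0.02 (0.960). Across both sets the fit with the set term gave -0.49 (95% interval -0.88 to -0.09, edgeR adjusted p = 0.0960), and it passed without KO 1 (-0.82, adjusted p = 3.0e-05) or without WT 1 (-0.59, 0.0366). Gngt2 shares 234 of its 1877 exonic bases with Abi3, a gene on the opposite strand, and the sources used here do not give the strand setting of the quantification. Abi3, looked up because of that overlap and named after its values were seen, was at 53.1, 20.0, 27.2 and 23.9 CPM in KO 1 to KO 4, against 37.0, 38.5, 40.9 and 43.5 CPM in WT 1 to WT 4. The log2 fold change of Abi3 was -0.84 within the other 5 and 0.43 within the lung-rich set, so Abi3 moved with Gngt2 in the other 5 libraries, and its part in the Gngt2 count was not tested.

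**Figure D2:**
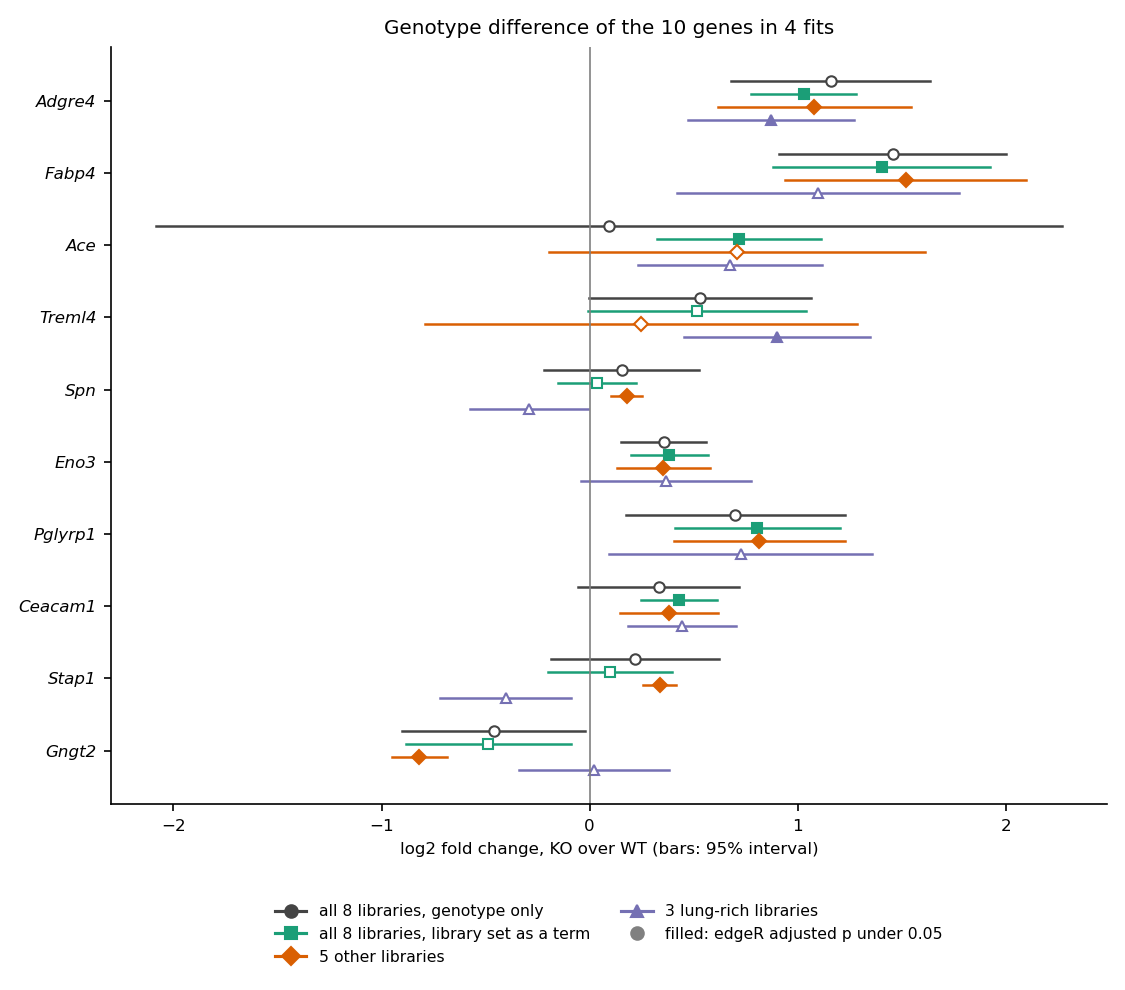
Log2 fold change (KO over WT) of each of the 10 genes (horizontal axis) with its 95% interval, over all 8 libraries, with the library set as a term, within the other 5 libraries and within the 3 lung-rich ones, with filled markers where the edgeR adjusted p was under 0.05. The intervals of Adgre4, Fabp4 and Pglyrp1 lay above 0 in each of the 4 fits, and that of Ace was widest over all 8 libraries.

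The difference between the sets was tested for each gene as an interaction, the log2 fold change in the lung-rich libraries minus that in the other 5. Gngt2 was the one member with a positive interaction that passed and Spn and Stap1 were the ones with a negative one, 1 and 2 of 10, where 8.84% and 10.1% of all genes passed in these directions. The interaction was -0.67 ± 0.10 for Stap1 (SE; edgeR adjusted p = 8.75e-04), -0.40 ± 0.08 for Spn (SE; 0.00707) and 0.90 ± 0.15 for Gngt2 (SE; 0.00185). Each rests on KO 1 as the only lung-rich KO library, in which the interstitial macrophage sum was 9495 CPM against 13589 and 14417 CPM in WT 1 and WT 2. The part of that gap in the low Spn and Stap1 values of KO 1 was not tested. For the 7 other members the interaction did not pass, with values between -0.37 for Fabp4 and 0.71 for Treml4.

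**Figure D3:**
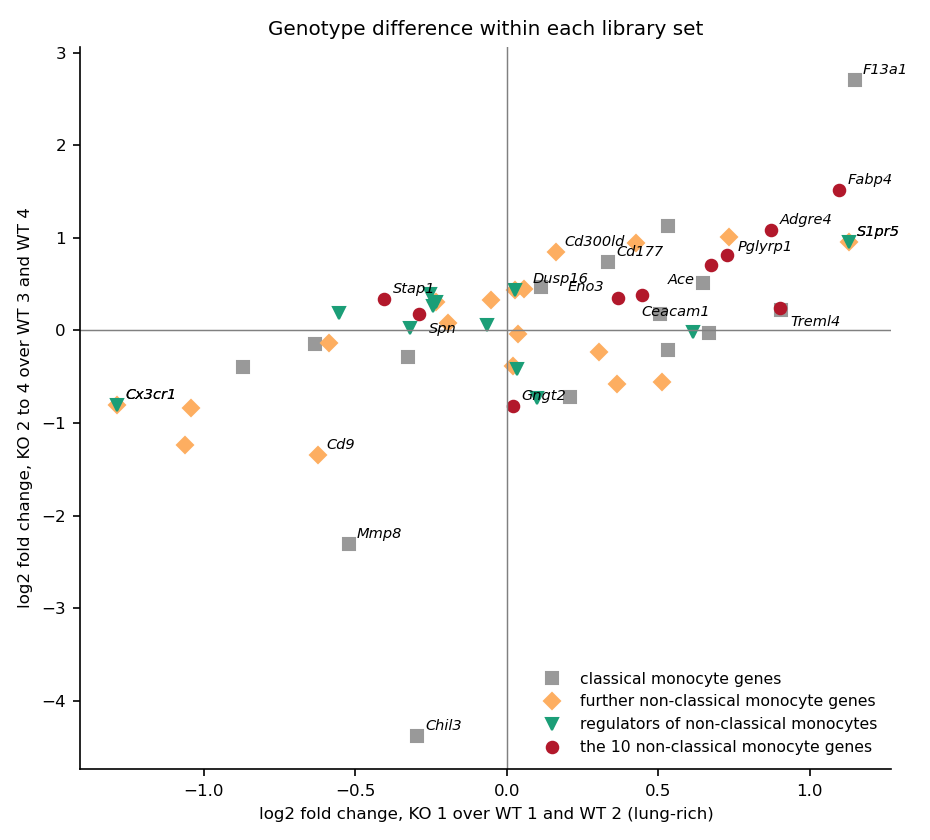
Log2 fold change (KO over WT) within the other 5 libraries (vertical axis) against that within the 3 lung-rich ones (horizontal axis) for the 10 genes and for the genes of the other monocyte lists. Adgre4, Fabp4, Ace, Treml4, Eno3, Pglyrp1 and Ceacam1 were above 0 on both axes. Spn and Stap1 were above 0 on the vertical axis and below 0 on the horizontal one.

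To compare levels between the genes, CPM was divided by the length of the longest transcript in kilobases. Ace was the highest per kilobase, at 83.4 in KO and 78.2 in WT, with the lung-rich libraries included, whereas among the other 5 its 36.7 in KO and 22.5 in WT lay below Stap1, at 45.7 in KO and 36.3 in WT. Over all 8 libraries Stap1 (41.1 in KO and 35.3 in WT) and Spn (41.0 and 36.9) came next and did not differ from each other beyond the spread of either. Adgre4 followed in KO, at 36.7, against 16.5 in WT, where Gngt2 was above it (22.0 in KO and 30.3 in WT). Ceacam1 and Treml4 lay between 12.1 and 19.1 per kilobase in both genotypes. Eno3, Pglyrp1 and Fabp4 were lowest, between 8.39 and 8.80 in KO and between 3.05 and 6.87 in WT.

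The other genes of the non-classical programme went both ways. In a list of 19 further non-classical monocyte genes, edgeR called 0 over all 8 libraries, with 5 at an unadjusted p under 0.05, and DESeq2 called 2 (Cx3cr1 and Cd9). With the set as a term 5 rose (Cd36, Dusp16, Cd300ld, S1pr5 and Cd300e) and 4 fell (Cd9, Cx3cr1, Itgax and Lair1), with a median log2 fold change of 0.01, against 0.03 for all genes. Cd36, Cd300e, Itgax and Lair1 were named here after their values were seen. The 4 that fell, and Cd36 and Cd300e, passed in each of the 8 fits that left out a library, whereas Dusp16 and Cd300ld lost their calls without KO 2, KO 3, KO 4, WT 3 or WT 4, with adjusted p up to 0.196 and 0.114. Cx3cr1, the fractalkine receptor that holds non-classical monocytes at the vessel wall and keeps them alive, was at 214, 358, 295 and 326 CPM in KO 1 to KO 4, against 547, 449, 568 and 575 CPM in WT 1 to WT 4. It went in the direction opposite to Adgre4 and Fabp4, with no overlap. It fell by 0.95 with the set as a term (edgeR adjusted p = 0.00145), by 0.81 within the other 5 (0.00300) and by 1.28 within the lung-rich set (0.0174). Recipient cells carried the Cx3cr1-DTR allele, and how many of them remained in the sorted cells was not measured here. Cd9, a tetraspanin, was at 221, 174, 178 and 183 CPM in KO 1 to KO 4, against 302, 348, 462 and 448 CPM in WT 1 to WT 4, and fell by 1.06 with the set as a term (edgeR adjusted p = 0.00367). Cd300ld, an activating receptor of myeloid cells, was at 183, 370, 373 and 356 CPM in KO 1 to KO 4, against 138, 174, 199 and 207 CPM in WT 1 to WT 4. It rose by 0.63 with the set as a term (edgeR adjusted p = 0.0170).

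Of 12 regulators of these monocytes, edgeR called 0 over all 8 libraries, with 1 at an unadjusted p under 0.05, and DESeq2 called 1 (Cx3cr1). In the set-term fit S1pr5 rose and Cx3cr1 fell, 1 in each direction. Nr4a1, on which the cells depend, was at 947, 926, 890 and 908 CPM in KO 1 to KO 4, against 1134, 998, 744 and 729 CPM in WT 1 to WT 4. The KO values stayed within a narrow band and the WT values split by library set. The fit with the set term gave a log2 fold change of 0.14 for Nr4a1 (edgeR adjusted p = 0.398), that within the other 5 libraries 0.30 (5.7e-08) and that within the lung-rich set -0.23 (0.389). S1pr5, a sphingosine 1-phosphate receptor that lets non-classical monocytes leave the marrow, was at 8.83, 2.96, 5.96 and 5.06 CPM in KO 1 to KO 4, against 3.25, 4.39, 1.69 and 2.90 CPM in WT 1 to WT 4. It rose by 1.06 with the set as a term (edgeR adjusted p = 0.0277), a call lost without KO 1, KO 3, KO 4, WT 1 or WT 3 (adjusted p up to 0.107). The transcription factors Cebpb (-0.07), Klf2 (0.24), Klf4 (-0.23), Pou2f2 (0.19), Tcf7l2 (-0.41) and Irf2 (0.04), the receptors Notch2 (0.11) and Csf1r (-0.05) and the survival factor Bcl2 (0.31) did not pass in that fit, all values being log2 fold changes. Within the other 5 libraries 6 regulators rose (Pou2f2, Nr4a1, Csf1r, Notch2, S1pr5 and Bcl2) and 3 fell (Klf4, Tcf7l2 and Cx3cr1), in a fit where 19.7% of all genes were called higher and 18.7% lower.

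Genes of classical monocytes, the precursors of the non-classical ones, also went both ways. Of 16 tested, 1 passed over all 8 libraries. That was F13a1, the A subunit of coagulation factor XIII, at 485, 1343, 1404 and 1347 CPM in KO 1 to KO 4, against 249, 170, 214 and 205 CPM in WT 1 to WT 4 (log2 fold change 2.45, edgeR adjusted p = 0.0476). That call was lost when any library other than KO 1 was left out. In the fit with the set term 5 rose (F13a1, Ly6c2, Cd177, Gda and Cebpd) and 4 fell (Chil3, Mmp8, Irf8 and Ccr2). Ly6c2, Gda, Cebpd, Irf8 and Ccr2 were named after their values were seen. With each library left out of that fit, between 3 and 5 genes of the list were called higher and between 1 and 4 lower, and Chil3, Gda, Cd177, Mmp8 and Ccr2 were the ones to lose their calls, in 4 to 6 of the 8 fits. Chil3, a secreted chitinase-like protein, was at 20.4, 16.5, 17.6 and 15.8 CPM in KO 1 to KO 4, against 17.5, 30.0, 348 and 347 CPM in WT 1 to WT 4, so the high values were those of WT 3 and WT 4. Its call was lost without KO 2, KO 3, KO 4, WT 3 or WT 4 (adjusted p up to 0.127). Alveolar macrophages also express Chil3, and the summed level of their markers was 482 CPM in both of those libraries. Chil3 is itself one of those markers and made up most of that sum there. The sum is therefore no separate measure of those cells in WT 3 and WT 4.

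**Figure D4:**
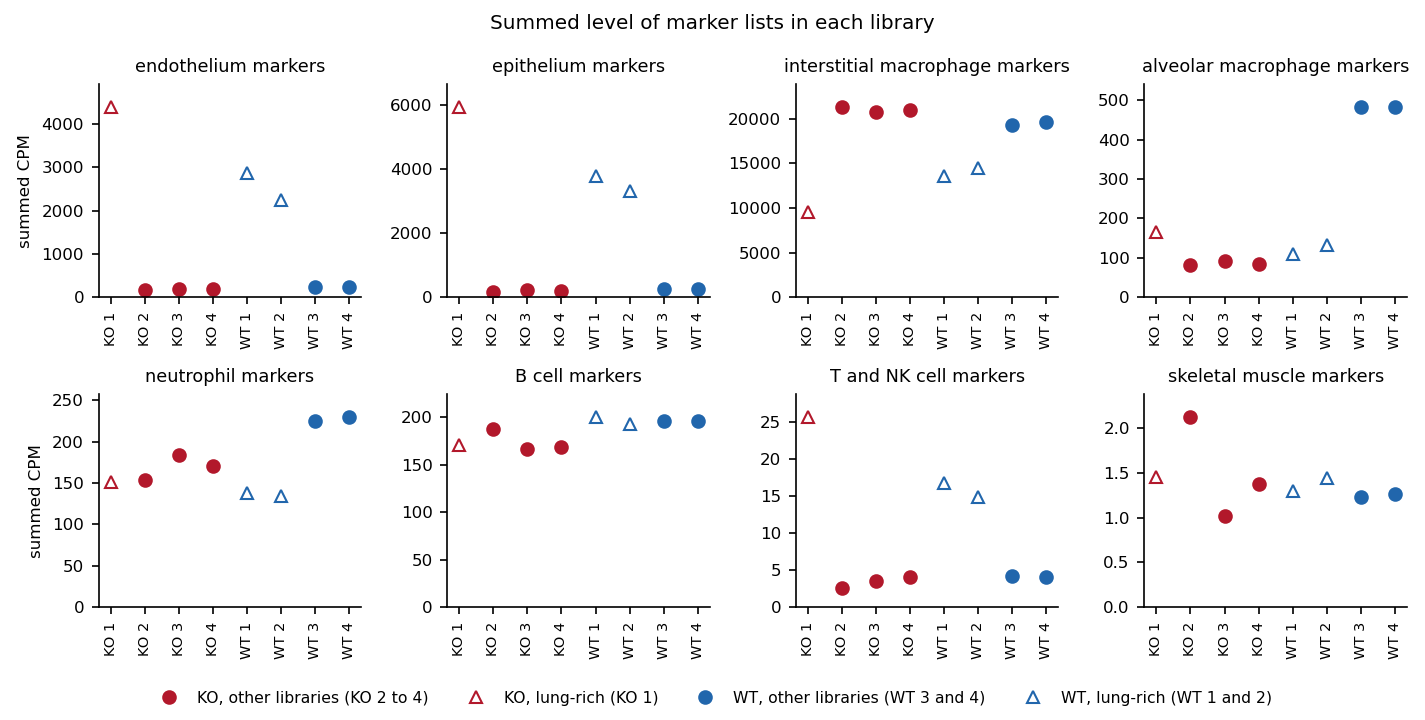
Summed level in CPM (vertical axis of each panel, from 0) of 8 marker lists, those of interstitial macrophages and of 7 other cell types, in each of the 4 KO libraries, at the left, and the 4 WT libraries, at the right. Endothelial and epithelial sums were highest in KO 1, WT 1 and WT 2, and the alveolar macrophage sum was highest in WT 3 and WT 4. Chil3, one of the alveolar macrophage markers, made up most of that sum in WT 3 and WT 4.

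The remaining marker lists bear on the sorted population around these genes. The 12 epithelial markers summed to 5927 CPM in KO 1 and 171 to 227 CPM in KO 2 to KO 4, against 3782 and 3304 CPM in WT 1 and WT 2 and 265 CPM in both WT 3 and WT 4. The 10 fibroblast markers followed the same split, at 1286 CPM in KO 1 and 107 to 144 CPM in KO 2 to KO 4, against 822 and 800.5 CPM in WT 1 and WT 2 and 115 and 123 CPM in WT 3 and WT 4. The 8 dendritic cell markers summed to 178 CPM in KO 1 and 106 to 112 CPM in KO 2 to KO 4, against 141 and 117 CPM in WT 1 and WT 2 and 68.8 CPM in both WT 3 and WT 4. The sum was thus higher in KO with no overlap within each set, as for the 6 members called with the set term, and 1 of the 8 (Zbtb46) was called higher and 0 lower in that fit. The 6 platelet and erythroid markers that passed the filter summed to 612 CPM in KO 1 and 512 to 541 CPM in KO 2 to KO 4, against 414 and 342 CPM in WT 1 and WT 2 and 190.3 and 199 CPM in WT 3 and WT 4, again higher in KO with no overlap within each set. In the fit with the set term 2 of the 6 rose, Pf4 by 1.32 (edgeR adjusted p = 0.0145) and Ppbp by 0.92 (0.0417), and 0 fell. Pf4, a platelet chemokine that some macrophages also express, made up most of the sum in KO 2 to KO 4, at 223, 466, 478 and 483 CPM in KO 1 to KO 4, against 176, 165, 134 and 139 CPM in WT 1 to WT 4. The call of Pf4 was lost without WT 3 or WT 4, and that of Ppbp without KO 2, KO 3, KO 4, WT 2, WT 3 or WT 4, with adjusted p up to 0.0896 and 0.197. With the set as a term, 1 of the 12 interstitial macrophage markers was called higher in KO and 3 lower, and of the endothelial markers 0 in either direction (0 also at an unadjusted p under 0.05 over all 8 libraries, and 0 by DESeq2). The part of these lists in the values of the 10 genes was not tested.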

How the data were processed

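RNA of sorted lung macrophages was analysed in 8 libraries, 4 KO and 4 WT, grouped by the genotype label. Per the labels, a stranded mRNA kit was used. The authors deposited 1 merged table of salmon estimated counts, not scaled to depth as far as the totals (15597300 to 37654100) show. Build GRCm38 and DESeq2 1.40.1 are in the submitters' processing notes. Not given in the sources used here are salmon's version, its strand setting, the transcript annotation and any filter.

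After rounding, edgeR 4.0.16 was run in R 4.3.3 (filterByExpr, minimum count 10 and minimum total 15, leaving 12750 genes; TMM; robust quasi-likelihood test on genotype; Benjamini-Hochberg threshold 0.05). The sets were fitted as a term, separately and as an interaction. CPM are TMM-scaled, intervals are at 95%, and 3 counts were the floor. Intervals and floors cover counting error and the spread between these libraries only. Alternatives used DESeq2 1.42.0, limma 3.58.1 (voom), other scalings, no filter, a replicate block and left-out libraries. The model was tested on simulated data. RefSeq promoters of GRCm38.p6 were searched by exact letters.

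The 10 genes and 16 lists were chosen with earlier results of these data known. The genes named were the 10 members, Tgfbr2, Lyz2, every regulator, and up to 4 genes per list with the smallest adjusted p and the first 2 of each marker list; others are marked where they are named. The library sets came from earlier results, and fits that leave out a library beside the set term were added after seeing the data.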

Additional observations from a re-analysis of the deposited data

Results flagged for a closer look

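In 3 of the 20 sets of 4 values (10 genes in each genotype), the library farthest from the others lay beyond Dixon's 95% limit for 4 values, and chance flags about 1 in 20 groups. KO 1 was the library in all 3. Its Ace was 1096 CPM, with the next KO library at 228 CPM and a gap of 0.901 of the range. Its Spn was 108 CPM, with the next at 166 CPM and a gap of 0.908 of the range. Its Stap1 was 90.9 CPM, with the next at 152 CPM and a gap of 0.953 of the range. No other KO library was lung-rich, so the deviation of KO 1 and that of its set cannot be told apart.

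The genotype difference was not the same in the lung-rich and the other libraries for 3 genes. The log2 fold change in the lung-rich libraries minus that in the others was -0.40 for Spn, -0.67 for Stap1 and 0.90 for Gngt2, each past an adjusted p of 0.05 by edgeR and each in all 11 alternatives run for the interaction. KO 1 was in all of these fits, since the interaction cannot be fitted without it.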

How the results depend on the processing

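Over the 8 libraries, 25 genes were higher and 13 lower in KO, with 0 of the 10 members called. Scaling by library totals only gave 53 and 28 genes and 1 member, and DESeq2 gave 314 and 152 genes and 3 members. The set as a term gave 1095 and 1006 genes and 6 members higher, and 1002 and 1092 genes with RLE size factors, again with 6. With WT 3 and WT 4 summed in that fit there were 318 and 491 genes and 2 members, and Spn and Stap1 were at -0.041 and -0.010. The other 5 libraries gave 2493 and 2363 genes with 7 members higher and 1 lower. The 3 lung-rich ones gave 443 and 273 genes with 2 members higher, and Spn, Stap1 and Gngt2 at -0.29, -0.40 and 0.021. Ace was at -0.10 by limma-voom. The NR4A core of 6 letters was in 3 member promoters and the full motif in 0.

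Leaving out each library gave 0 to 2584 genes higher, 0 to 2494 lower, 0 to 8 members higher and 0 to 1 lower, over the fits with genotype alone, with the set term and within the 5 other libraries. In these fits Ace was between -1.09 (without KO 1, genotype alone) and 0.90, Spn between -0.047 and 0.29 and Stap1 between -0.020 and 0.37. The interaction, with 1127 genes higher and 1284 lower, gave 583 higher with WT 3 and WT 4 summed, where Ace was at -0.019, and 486 to 1593 higher with each library left out. Across those, interaction values ranged from -0.20 to 0.26 for Ace, -0.30 to 0.054 for Adgre4, -0.016 to 0.19 for Ceacam1, -0.028 to 0.12 for Eno3 and -0.24 to 0.20 for Pglyrp1. The cause of these changes was not tested. Of 320 genotype values of the members under alternatives, 200 kept their direction and side of the threshold, 104 moved past it and 16 turned sign.

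The replicate numbers were checked as pairs. Deviations from the group means correlated across genes at 0.867, -0.794, 0.694 and 0.753 for numbers 1 to 4. Every KO and WT pair within a library set correlated positively, and every pair across the sets negatively. For KO 1 the value was 0.880 with WT 2 and -0.881 with WT 4. The check thus follows the set and cannot show whether same-numbered libraries were paired. The replicate block gave 0 genes higher, 0 lower and 0 members called. At this depth Fabp4 and Pglyrp1 rested on the fewest counts among the members, 41 to 192 and 64 to 217 per library, and the part of depth in their spread was not tested.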

Other observations

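Fabp4 and Adgre4, the members with the largest fold changes, also varied among the KO libraries that were not lung-rich. Fabp4 was at 5.54, 8.41 and 9.79 CPM and Adgre4 at 120, 140 and 159 CPM in KO 2, KO 4 and KO 3. The same order, KO 2 lowest and KO 3 highest, held in 7 of the 10 members (Adgre4, Fabp4, Ace, Treml4, Pglyrp1, Ceacam1 and Gngt2) and in 20.2% of the 12750 genes tested, and the reverse order in 0 of 10 and 20.5%. The epithelial list showed that order in 8 of 12 genes, the classical monocyte list in 9 of 16 and the further non-classical list in 8 of 19. It held in 6 of 12 regulators, 5 of 9 fibroblast, 5 of 12 endothelial and 4 of 8 alveolar macrophage genes. In the neutrophil list it held in 3 of 11, and in the dendritic cell, platelet and erythroid, and T and NK cell lists in 2 of 8, 2 of 6 and 2 of 4. The B cell list showed it in 1 of 8. Of the 12 interstitial macrophage genes, 3 showed that order and 6 the reverse. The surfactant gene Sftpc of the epithelial list was at 67.9, 83.8 and 95.4 CPM in KO 2, KO 4 and KO 3. This order was noticed after the values were seen. Its relation to the level of the epithelial or any other list was not tested.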
